A study of Meleagris gallopavo with 18 samples.

Results

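The testis and the ductus deferens of the same 6 turkeys were compared over all loci of the deposited gene counts. The 6 testis and the 6 ductus deferens libraries were taken by the tissue in the sample labels, from 18 libraries in all, and 27550 of 56037 loci had enough counts to be tested. The toms (birds 2, 11, 12, 14, 15 and 16) were aged 38 weeks, with photostimulation from an age of 26 weeks by days of 14 h light and 10 h dark, and the labels give no other treatment. Each library came from 1 tissue of 1 bird, so the tissues of a bird are paired. Named loci are the 80 reported here whose identifier was paired with a gene in the part of the study's supplement that could be read. They were grouped into 9 lists by role. The study tied further genes to these tissues, so counts and shares of the lists describe these 80 loci only. The study named these loci because it found them differential between tissues of the same libraries, so their counts are not independent evidence of a direction.

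The testis makes sperm. Germ cells divide there, pass through meiosis and build a flagellum around an axoneme, a ring of microtubule doublets moved by dynein arms. The ductus deferens is the last part of the excurrent tract, a tube of epithelium in a muscular wall that holds and carries sperm in a fluid whose ions, water and proteins it adjusts. A library of whole tissue mixes the RNA of these cells, and of the sperm in the duct, so fewer cells of a type and less RNA per cell cannot be told apart.

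The total number of counts per library was from 81438457 to 100159106 in the testis and from 64143451 to 100241426 in the ductus deferens. Levels are given as CPM (counts scaled to a common library size) after TMM scaling of the 12 libraries, and 3 counts, taken as the limit of the depth, corresponded to 0.0237 to 0.057 CPM. Log2 fold changes are coded as ductus deferens minus testis, so that positive values are higher in the duct. A locus was called when edgeR's quasi-likelihood test, adjusted over the 27550 loci by the method of Benjamini and Hochberg, gave p under 0.01 and the log2 fold change was beyond 1. The testis of bird 11 stood apart from the other testes. Its median correlation with them was 0.877 on log2(CPM + 1), against 0.924 to 0.948 for the other 5 testes and 0.952 to 0.965 for the ducts, and 8028 loci lay over 2-fold from the tissue median in it. The testis of bird 12 came next with 4213 such loci, and the other testes had 354 to 1857. For the loci described in full, a log2 fold change that moved by more than 1.5-fold when 1 bird was left out is given with and without that bird.

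Most differences between the tissues were losses in the duct, and these were far larger than the gains. In all, 12470 loci (45.3% of those tested) were called, of which 8378 (30.4%) were lower and 4092 (14.9%) were higher in the ductus deferens. The median log2 fold change was −5.79 among loci called lower and 2.39 among loci called higher. A log2 fold change beyond 4 was found in 5812 of the loci called lower (69.4%) and in 810 of those called higher (19.8%). Over all loci tested the median was −0.59, and it moved to −0.90 with library size alone and to −0.80 with the size factors of DESeq2. Without the testes of birds 11 and 12, 12563 loci were called, 8315 lower and 4248 higher.

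**Figure D1:**
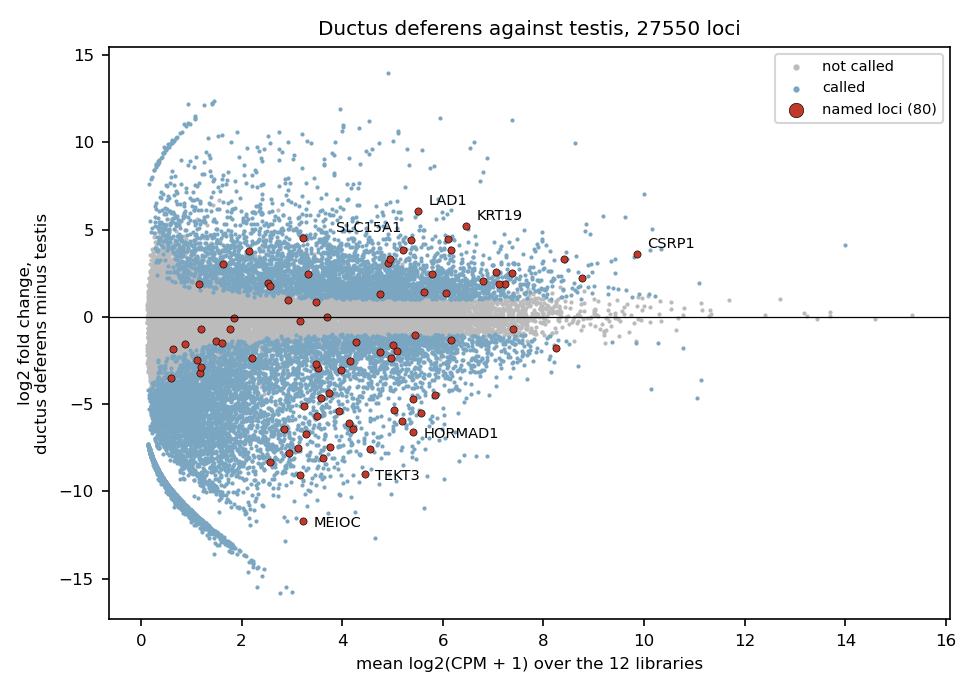
Log2 fold change (ductus deferens minus testis) of each of the 27550 loci tested against its mean log2(CPM + 1) over the 12 libraries. Blue points are called, grey points are not, and red points are the 80 named loci. The 8378 calls below 0 reach further from 0 than the 4092 calls above it, and the curved lower edge holds loci without counts in the duct.

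Many of the losses reached the limit of the depth. At most 3 counts in every ductus deferens library were found for 2752 of the loci called lower (32.9%), whereas 80 of the loci called higher (1.96%) had at most 3 counts in every testis library. With the loci at the limit set to the bound that 3 counts allow, the median log2 fold change of the loci called lower was −4.37. None of the 80 named loci was at this limit in either tissue, but some came close in the duct. Summed over the 6 ducts, the locus had 13 counts for MEIOC, 51 for KIF18A and 71 for DRC7. The size of their fold changes therefore rests on few counts.

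Of the named loci, 64 of 80 (80.0%) were called, beside 45.3% of all loci tested. The called named loci were 39 lower and 25 higher in the duct, and 62 of the 64 had one direction in all 6 birds. The libraries of the tissues did not overlap for 60 named loci, 37 lower and 23 higher, beside 30.3% lower and 14.3% higher (44.6% in all) among the loci tested. The lists of cell division, axoneme and sperm genes were nearly all lower in the duct, those of transport, plasma proteins and metabolism held higher loci only among their calls, and the other lists were mixed.

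**Figure D2:**
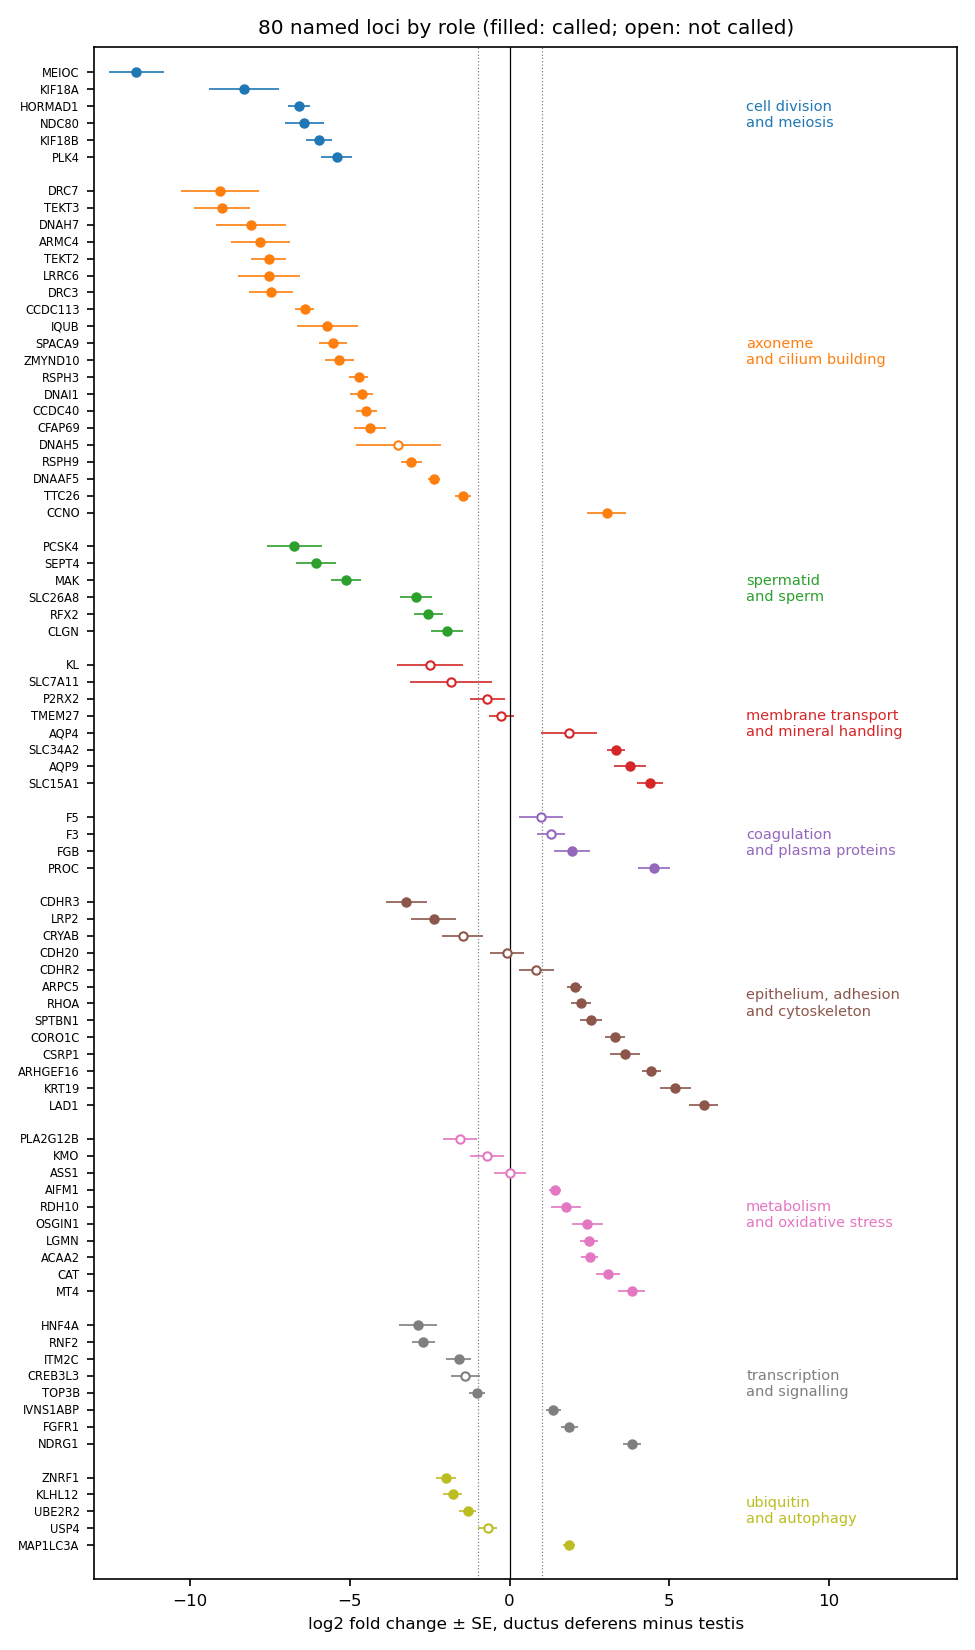
Log2 fold change ± SE of the 80 named loci in 9 role lists, with 6 birds per tissue. Filled points are called and open points are not, and the dotted lines mark a log2 fold change of 1 in each direction. All 6 cell division loci and 18 of the 20 axoneme loci lie left of 0 as called loci, and CCNO is the axoneme locus called on the right.

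All 6 cell division and meiosis loci were called lower in the duct, beside 30.4% of all loci tested. Their log2 fold changes were from −11.68 to −5.42 (median −6.50). MEIOC, which keeps germ cells of the mouse in meiotic prophase, ranged from 36.1 to 131 CPM in the testis (median 96.3) and from 0 to 0.0797 CPM in the duct (median 0). Its log2 fold change was −11.68 ± 0.87 (SE, adjusted p = 2.64e-07), and −12.49 without bird 15. KIF18A, a kinesin of the spindle, had 7.82 to 51.5 CPM in the testis (median 37.0) against 0 to 0.239 CPM in the duct (median 0.104), a log2 fold change of −8.31 ± 1.09 (adjusted p = 2.42e-05). The lowest testis value of both loci was that of bird 11, and it was still far above every duct library.

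HORMAD1, a protein of the meiotic chromosome axis, kept a low level in the duct. It ranged from 299 to 610 CPM in the testis (median 331) and from 2.93 to 6.29 CPM in the duct (median 3.36), with a log2 fold change of −6.59 ± 0.34 (adjusted p = 1.88e-08). Here the testis of bird 11 was the highest of the 6. NDC80, a protein of the kinetochore, ranged from 8.79 to 84.0 CPM in the testis (median 37.9) and from 0.136 to 0.786 CPM in the duct (median 0.514), a log2 fold change of −6.42 ± 0.61 (adjusted p = 1.95e-06). KIF18B, another spindle kinesin, and PLK4, the kinase that starts centriole duplication, differed by −5.97 and −5.42 on the log2 scale. None of the 6 loci overlapped between the tissues, and 30.3% of all loci tested were likewise lower in the duct without overlap.

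Of the 20 loci of the axoneme and of cilium building, 18 were called lower in the duct, 1 was called higher and 1 was not called. Among all loci tested, 30.4% were called lower and 14.9% higher. The median log2 fold change of the list was −5.43. DRC7, a part of the nexin-dynein regulatory complex that links neighbouring doublets, had 56.6 to 98.6 CPM in the testis (median 66.9) and 0 to 0.588 CPM in the duct (median 0). The log2 fold change was −9.06 ± 1.22 (adjusted p = 3.04e-05), and −10.95 without bird 15. Its locus is also on the study's list of long non-coding RNA (lncRNA) loci, so its counts may hold both kinds of transcript. TEKT3, a tektin of the doublets, ranged from 240 to 652 CPM in the testis (median 281) and from 0.0416 to 2.013 CPM in the duct (median 0.385), a log2 fold change of −9.01 ± 0.87 (adjusted p = 2.08e-06), which was −8.42 without bird 11 and −9.87 without bird 15.

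DNAH7, a heavy chain of the inner dynein arms, had 25.5 to 199.9 CPM in the testis (median 142) and 0 to 1.02 CPM in the duct (median 0.418), a log2 fold change of −8.09 ± 1.09 (adjusted p = 3.02e-05). ARMC4, which docks the outer arms, had 9.16 to 144 CPM in the testis (median 51.6) and 0 to 0.628 CPM in the duct (median 0.208), a log2 fold change of −7.80 ± 0.93 (adjusted p = 1.17e-05). No testis library overlapped a duct library for these loci, as for 30.3% of all loci tested in this direction. The other called losses of the list included TEKT2 (−7.55), LRRC6 (−7.53) and ZMYND10 (−5.33), the latter pair being assembly factors of dynein arms, and were smallest for DNAAF5 (−2.37), another assembly factor, and TTC26 (−1.46), a subunit of intraflagellar transport. The losses were not equal along the list, and TTC26 kept 8.03 to 15.9 CPM in the duct against 26.0 to 33.3 CPM in the testis.

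CCNO was the exception. This cyclin acts in the amplification of centrioles in multiciliated cells. It ranged from 0.0525 to 1.23 CPM in the testis (median 0.624) and from 3.12 to 7.73 CPM in the duct (median 4.58), and was higher in the duct in all 6 birds (log2 fold change 3.04 ± 0.61, adjusted p = 0.000663). DNAH5, a heavy chain of the outer arms, had 0.0705 to 2.77 CPM in the testis (median 1.33) and 0 to 0.529 CPM in the duct (median 0.0169). Its log2 fold change of −3.48 ± 1.32 was not called (adjusted p = 0.0349), and the tissues overlapped through bird 11, which had the lowest testis and the highest duct value. Without bird 11 it was −5.43 (adjusted p = 0.00278).

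All 6 spermatid and sperm loci were called lower in the duct, beside 30.4% of all loci tested. Their log2 fold changes were from −6.74 to −1.95. PCSK4, a protease of the sperm surface, had 44.7 to 158 CPM in the testis (median 48.8) and 0 to 1.57 CPM in the duct (median 0.498), a log2 fold change of −6.74 ± 0.86 (adjusted p = 2e-05). It was −6.01 without bird 11, whose testis was the highest, and −7.35 without bird 12. SEPT4, a septin of the ring between the midpiece and the principal piece, had 50.6 to 227 CPM in the testis (median 126) and 0.233 to 3.29 CPM in the duct (median 1.95), a log2 fold change of −6.05 ± 0.62 (adjusted p = 3.46e-06). Both were at least an order of magnitude lower in every duct library than in every testis library. MAK, a kinase of male germ cells, differed by −5.11 ± 0.47 (adjusted p = 1.54e-06) and SLC26A8, an anion transporter of sperm, by −2.92 ± 0.50 (adjusted p = 0.00019). RFX2, whose tie to its locus is uncertain as described below, differed by −2.54.

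The weakest of the 6 was CLGN (calmegin), a chaperone of the endoplasmic reticulum of spermatids. It ranged from 12.6 to 185 CPM in the testis (median 64.1) and from 10.6 to 37.0 CPM in the duct (median 19.7). The tissues overlapped, because bird 11 had its lowest testis value and, at 37.0 CPM, its highest duct value. The log2 fold change was −1.95 ± 0.50 (adjusted p = 0.0041). In the fit with birds as blocks it was not called (−1.85, adjusted p = 0.0213), and the call was also lost without bird 2, 12, 14 or 15, with adjusted p up to 0.019. Without bird 11 it was −2.40 (adjusted p = 0.000162).

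**Figure D3:**
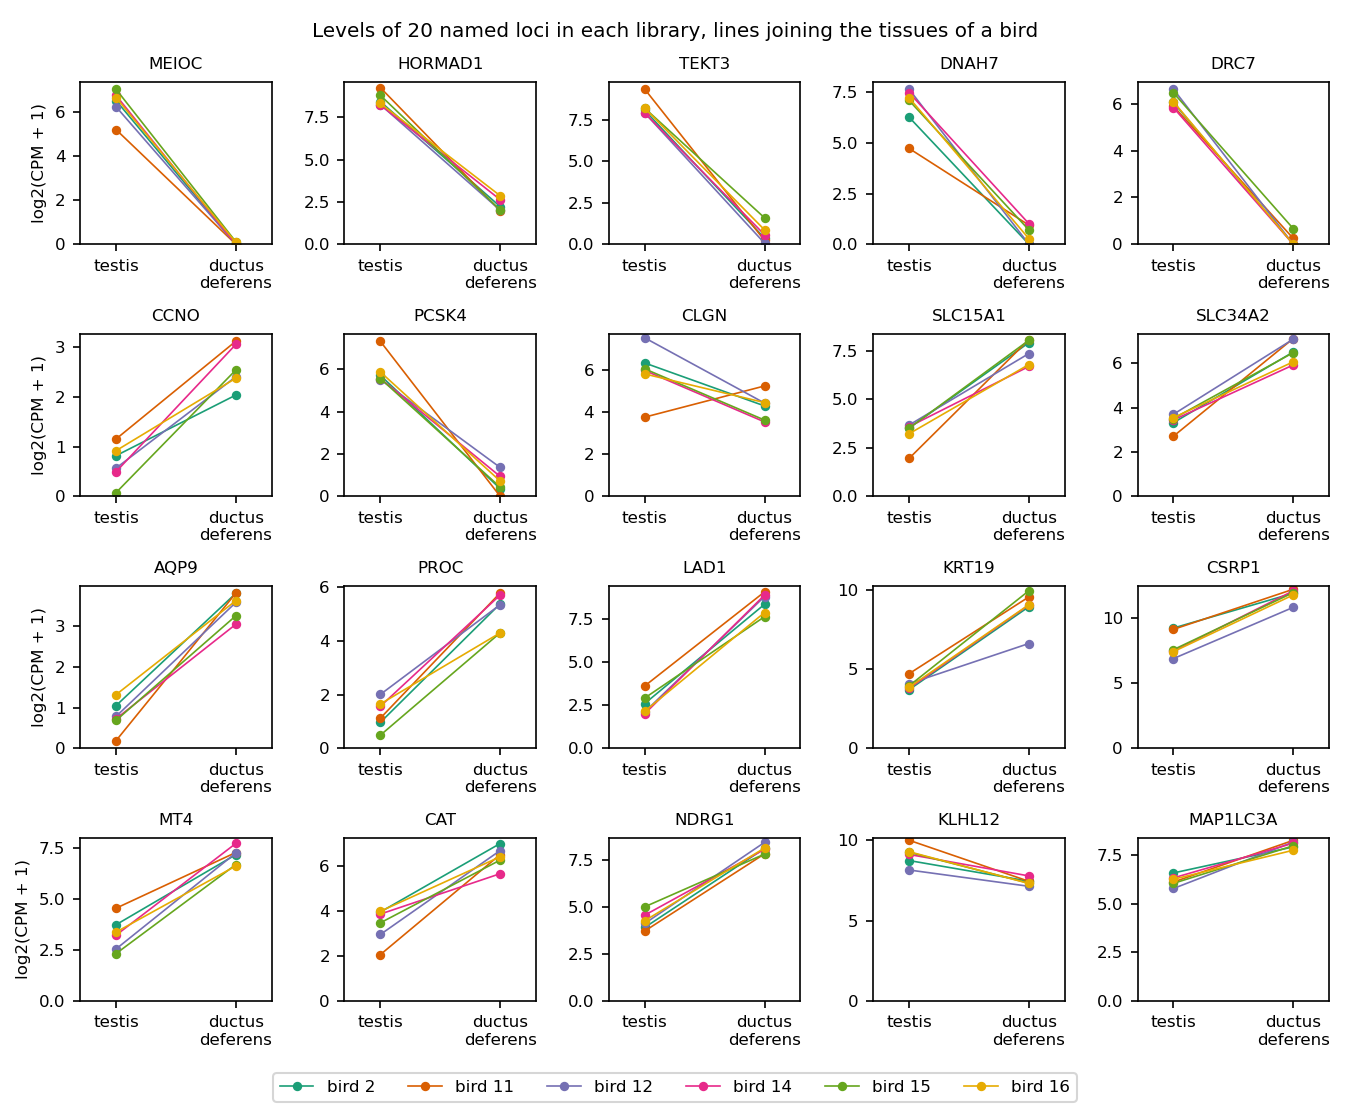
Levels of 20 named loci as log2(CPM + 1) in each library, with a line joining the testis and the ductus deferens of each of the 6 birds. Lines of MEIOC, DRC7 and PCSK4 fall to near 0, lines of LAD1, KRT19 and SLC15A1 rise in all 6 birds, and the line of bird 11 runs against the other 5 for CLGN.

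The testes themselves differed in these loci of cell division, axoneme and sperm, and bird 11 was low for some and high for others. Among the 20 axoneme loci its testis was the lowest of the 6 for 8 and the highest for 6, and the testis of bird 12 was the highest for 11. Over the 8378 loci called higher in the testis, the testis of bird 11 was the lowest for 26.5% and the highest for 34.1%. That of bird 12 was the highest for 32.2% of them. CCNO and DNAH5 are among the 20 axoneme loci but not among those 8378. DNAH7 (25.5 CPM), ARMC4 (9.16 CPM), LRRC6 (9.30 CPM), CFAP69 (12.2 CPM) and IQUB (17.7 CPM) had their lowest testis value in bird 11. In the same library TEKT3 (652 CPM), TEKT2 (584 CPM), SPACA9 (604 CPM) and ZMYND10 (393 CPM) had their highest. Of the 8 axoneme loci lowest in bird 11, 6 had their highest testis value in bird 12, those 5 among them. The others, DNAH5 and TTC26, were highest in bird 15. Of the cell division loci, 4 of 6 were lowest in the testis of bird 11, but HORMAD1 and KIF18B were highest there. Of the 58 marker genes listed for germ, Sertoli, Leydig, smooth muscle, epithelial, immune and red blood cells, 4 could be matched to a locus (HORMAD1 and MEIOC for germ cells, KRT19 and LAD1 for epithelium). Both germ cell markers were high in every testis and both epithelial markers were high in every duct. The study named these 4 loci because they differed between the labelled tissues, so they are no check of the labels. KRT19 and LAD1 had their highest testis values in bird 11, at 25.6 and 11.3 CPM against 12.2 to 16.2 and 3.03 to 6.58 CPM in the others, and their part in the difference between testes was not tested. No Sertoli, Leydig, smooth muscle, immune or red blood cell marker was matched among the names that could be read. The study does list the smooth muscle markers MYH11, MYLK and CALD1 among its genes, so a missing match is no sign of a missing gene.

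**Figure D4:**
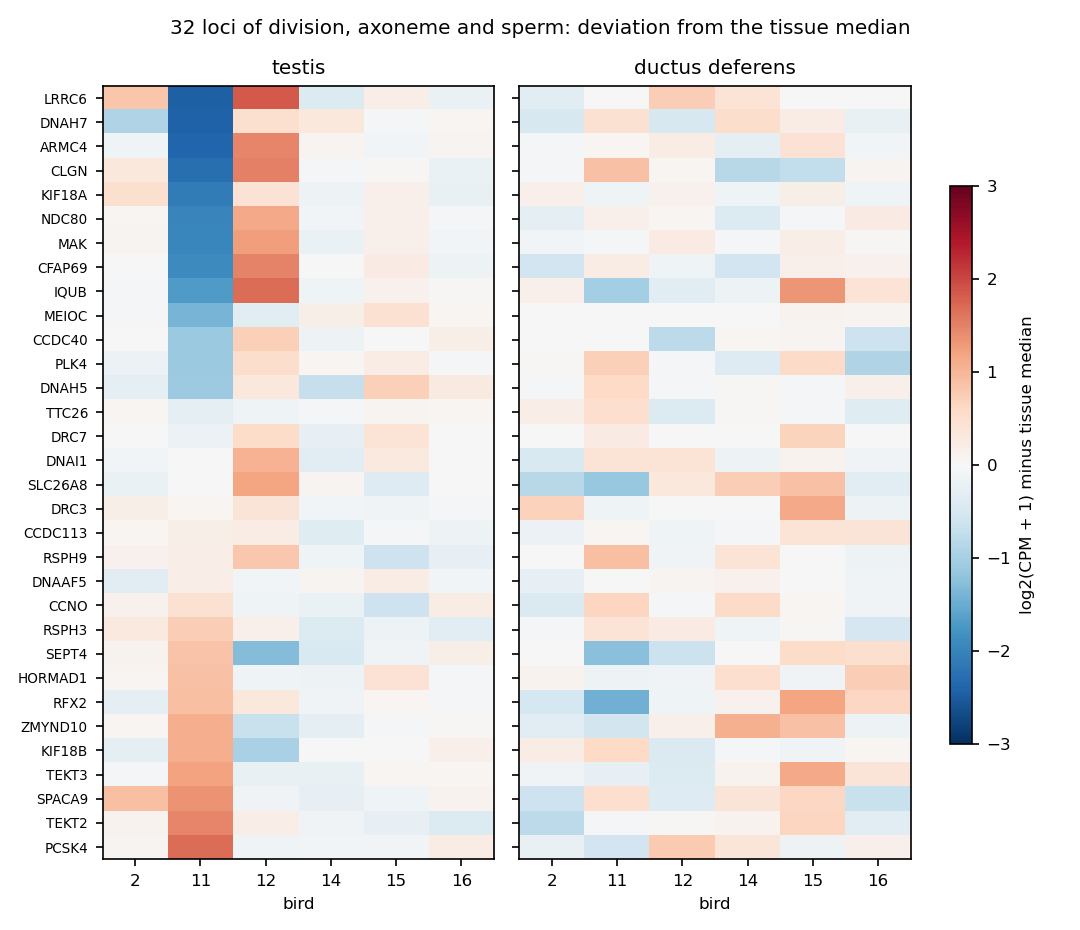
Deviation of each library from the median of its tissue, as log2(CPM + 1), for the 32 loci of cell division, axoneme and sperm, sorted by the testis of bird 11. The testis of bird 11 holds the strongest negative value, the testis of bird 12 is above the median for many loci that are low in bird 11, and the scale is limited to 3 in each direction.

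In the list of membrane transport and mineral handling, 3 of 8 loci were higher in the duct and the other 5 were not called, beside 45.3% called and 14.9% called higher among all loci tested. SLC15A1, a proton-coupled carrier of small peptides, had 2.88 to 11.8 CPM in the testis (median 10.5) and 103 to 269.9 CPM in the duct (median 203), a log2 fold change of 4.39 ± 0.40 (adjusted p = 1.36e-06). AQP9, a channel for water and small solutes such as glycerol, had 0.141 to 1.49 CPM in the testis (median 0.687) and 7.19 to 12.9 CPM in the duct (median 11.0), a log2 fold change of 3.76 ± 0.50 (adjusted p = 2.45e-05). SLC34A2, a sodium-phosphate cotransporter of epithelia, had 5.56 to 12.0 CPM in the testis (median 10.2) and 59.9 to 138 CPM in the duct (median 89.5), a log2 fold change of 3.33 ± 0.29 (adjusted p = 9.32e-07). These loci were higher in the duct in all 6 birds without overlap, beside 14.3% of all loci tested that were higher there without overlap. The AQP9 locus is also on the lncRNA list of the study.

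The uncalled members had medians under 9 CPM in both tissues. AQP4, a water channel, had medians of 0.622 (testis) and 2.59 CPM (duct) (log2 fold change 1.86 ± 0.89, adjusted p = 0.0848), and was 0 in the duct of bird 11. Without that bird its log2 fold change was 1.96 (adjusted p = 0.00287). KL, the co-receptor for FGF23, had medians of 2.25 and 0.156 CPM (−2.49 ± 1.04, adjusted p = 0.0528; −3.43 without bird 16). P2RX2, a cation channel opened by ATP, had medians of 2.84 and 2.41 CPM (−0.70 ± 0.56, adjusted p = 0.297; 0.047 without bird 11), and SLC7A11, the exchanger of cystine and glutamate, 1.08 and 0.0282 CPM (−1.83 ± 1.28, adjusted p = 0.234; −3.21 without bird 2). TMEM27 (collectrin), which brings amino acid carriers to the cell surface in the mammalian kidney, had medians of 8.32 and 8.88 CPM (−0.26 ± 0.38, adjusted p = 0.583).

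Of the 4 loci of coagulation and plasma proteins, 2 were called and both were higher in the duct, a share near the 45.3% of all loci tested. With library size alone, or with the size factors of DESeq2, only PROC was called. PROC (protein C), an anticoagulant protease precursor, ranged from 0.409 to 3.03 CPM in the testis (median 1.58) and from 18.7 to 54.2 CPM in the duct (median 40.2). Its log2 fold change of 4.52 ± 0.51 (adjusted p = 7.39e-06) had one direction in all 6 birds. FGB, the fibrinogen β chain, had 1.09 to 7.03 CPM in the testis (median 2.10) and 4.48 to 25.4 CPM in the duct (median 8.12), and the tissues overlapped. Bird 12 had the highest FGB value in both tissues. The log2 fold change of 1.96 ± 0.56 (adjusted p = 0.00778) kept its direction in every bird, but lost the call when bird 2, 11, 14, 15 or 16 was left out, with adjusted p up to 0.0309.

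F3 (tissue factor), which starts coagulation, had medians of 18.1 and 36.8 CPM (log2 fold change 1.29 ± 0.43, adjusted p = 0.018). The block by bird brought it past the threshold (1.41, adjusted p = 0.00897), and it was called without the testis of bird 11 (1.11, adjusted p = 0.00877), which had its lowest value of 3.72 CPM. For F5, the cofactor of activated factor X, the medians were 5.71 and 7.24 CPM (0.97 ± 0.69, adjusted p = 0.243).

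The list of epithelium, adhesion and cytoskeleton had 8 of 13 loci higher in the duct, 2 lower and 3 not called (median log2 fold change 2.24). Among all loci tested, 14.9% were called higher and 30.4% lower. LAD1 (ladinin), a protein of basement membranes, had 3.03 to 11.3 CPM in the testis (median 4.26) and 197 to 536 CPM in the duct (median 385), a log2 fold change of 6.07 ± 0.45 (adjusted p = 2.63e-07). KRT19, a keratin of simple and ductal epithelia, had 12.2 to 25.6 CPM in the testis (median 14.1) and 98.8 to 1008 CPM in the duct (median 542), a log2 fold change of 5.19 ± 0.48 (adjusted p = 1.51e-06). The duct of bird 12 was the low one for KRT19, with 98.8 CPM against 499.7 CPM or more in the others, but still lay above every testis.

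ARHGEF16, an exchange factor for small GTPases, had 9.33 to 21.8 CPM in the testis (median 14.6) and 226 to 495 CPM in the duct (median 291), a log2 fold change of 4.44 ± 0.29 (adjusted p = 9.34e-08). The higher loci also held actin genes. CSRP1, a LIM protein bound to actin filaments and abundant in smooth muscle, ranged from 117 to 596 CPM in the testis (median 182), where birds 2 and 11 were high, and from 1790 to 4676 CPM in the duct (median 3852), where bird 12 was low. Its log2 fold change was 3.60 ± 0.46 (adjusted p = 2.07e-05), and the tissues did not overlap. CORO1C, a coronin, rose by 3.29 on the log2 scale, RHOA by 2.24 and ARPC5, a subunit of the Arp2/3 complex, by 2.03.

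The cadherins of the list were lower or not called. CDHR3, a cadherin-related protein, was lower in the duct (−3.23 ± 0.64, adjusted p = 0.000591). CDH20 had medians of 2.64 (testis) and 2.35 CPM (duct) (−0.09 ± 0.53, adjusted p = 0.892), and CDHR2 of 7.18 and 13.8 CPM (0.83 ± 0.55, adjusted p = 0.209). CRYAB, a small heat shock protein, had medians of 2.51 and 1.02 CPM (−1.47 ± 0.63, adjusted p = 0.0573). Without bird 11, whose testis was the highest, it was −0.79 (adjusted p = 0.266). LRP2 (megalin), an endocytic receptor, was called lower (−2.38 ± 0.70, adjusted p = 0.00982), although the tissues overlapped and the call was lost whichever bird was left out, with adjusted p up to 0.0463.

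Metabolism and oxidative stress loci were higher in the duct for 7 of 10 members, beside 14.9% called higher among all loci tested. None was lower by the test, beside 30.4% of all loci, and the median log2 fold change of the list was 2.10. MT4, a metallothionein, had 3.97 to 22.4 CPM in the testis (median 8.83) and 97.7 to 212 CPM in the duct (median 148), a log2 fold change of 3.82 ± 0.42 (adjusted p = 6.54e-06). CAT (catalase), which breaks down hydrogen peroxide, had 3.16 to 14.9 CPM in the testis (median 11.9) and 50.02 to 129 CPM in the duct (median 88.2), a log2 fold change of 3.08 ± 0.38 (adjusted p = 1.5e-05). ACAA2, a thiolase of mitochondrial fatty acid oxidation, had 42.5 to 118 CPM in the testis (median 63.9) and 301 to 529.9 CPM in the duct (median 382), a log2 fold change of 2.50 ± 0.27 (adjusted p = 4.22e-06). None of these overlapped between the tissues, beside 14.3% of all loci tested that were higher in the duct without overlap.

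LGMN (legumain), a lysosomal protease, rose by 2.47 ± 0.28 on the log2 scale (adjusted p = 6.92e-06), from 9.93 to 30.5 CPM in the testis to 99.6 to 159.8 CPM in the duct. OSGIN1, an inhibitor of growth induced by oxidative stress, rose by 2.43 (3.03 without bird 11), RDH10, a retinol dehydrogenase, by 1.76 and AIFM1, a mitochondrial flavoprotein, by 1.42. The RDH10 call was lost without bird 12, 15 or 16, with adjusted p up to 0.0232. ASS1, which makes argininosuccinate, had medians of 13.3 (testis) and 10.7 CPM (duct) (0.01 ± 0.50, adjusted p = 0.992). The other uncalled members, KMO (−0.70 ± 0.53, adjusted p = 0.269) of tryptophan breakdown and PLA2G12B (−1.55 ± 0.54, adjusted p = 0.0236), a secreted protein of the phospholipase A2 family, were at or below 2.58 CPM in every library.

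Transcription and signalling loci were split, with 3 of 8 higher in the duct, 4 lower and 1 not called. The shares among all loci tested were 14.9% higher and 30.4% lower. NDRG1, a gene induced by low oxygen and differentiation, had 12.1 to 31.0 CPM in the testis (median 17.2) and 224 to 345 CPM in the duct (median 271), a log2 fold change of 3.82 ± 0.27 (adjusted p = 1.78e-07). FGFR1, a receptor for fibroblast growth factors, had 46.6 to 139 CPM in the testis (median 74.7) and 215 to 374 CPM in the duct (median 301), a log2 fold change of 1.87 ± 0.27 (adjusted p = 5e-05). IVNS1ABP, a kelch protein bound to actin, was higher by 1.37.

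HNF4A, a nuclear receptor of liver, kidney and gut epithelia, had 1.80 to 5.42 CPM in the testis (median 2.49) and 0.136 to 0.874 CPM in the duct (median 0.285), a log2 fold change of −2.88 ± 0.60 (adjusted p = 0.000824). RNF2, the catalytic subunit of the Polycomb repressive complex that ubiquitinates histone H2A, had 17.8 to 45.6 CPM in the testis (median 23.4) and 2.27 to 6.44 CPM in the duct (median 3.60), a log2 fold change of −2.70 ± 0.35 (adjusted p = 2.1e-05). Both groups of libraries were apart. CREB3L3, a transcription factor anchored in the endoplasmic reticulum, was below the testis range in every duct (medians 2.76 and 1.11 CPM) but was not called (−1.39 ± 0.45, adjusted p = 0.0155). The call of ITM2C, a membrane protein (−1.59), was lost without bird 11, 14, 15 or 16, with adjusted p up to 0.0204. That of TOP3B, a topoisomerase (−1.02), was lost without bird 2, 11 or 15, and without the testis of bird 11 its log2 fold change was −0.84.

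In the list of ubiquitin and autophagy, 3 of 5 loci were lower in the duct, 1 was higher and 1 was not called. The shares among all loci tested were 30.4% lower and 14.9% higher. MAP1LC3A, which coats autophagosomes, was the higher one, with 54.1 to 95.0 CPM in the testis (median 72.1) and 215 to 307 CPM in the duct (median 265), a log2 fold change of 1.85 ± 0.20 (adjusted p = 4.77e-06). ZNRF1, a ubiquitin ligase, had 24.98 to 103 CPM in the testis (median 47.0) and 11.0 to 15.1 CPM in the duct (median 13.6), a log2 fold change of −1.995 ± 0.30 (adjusted p = 7.68e-05). KLHL12, an adaptor of a cullin ligase, had 284 to 1031 CPM in the testis (median 585) and 139.8 to 220 CPM in the duct (median 167), a log2 fold change of −1.79 ± 0.28 (adjusted p = 0.000102). Tissues were apart for these 3 loci, as for 44.6% of all loci tested in either direction.

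USP4, a deubiquitinase, was highest in the testis of bird 11, at 485 CPM against 139 to 220 CPM in the others, and was not called (−0.69 ± 0.31, adjusted p = 0.0665). The testis of bird 11 was the highest for 4 of the 5 loci of this list, and that of bird 12 was the lowest for 4. Over all loci called higher in the testis, these shares were 34.1% and 17.6%. That set is unlike the list, which also holds USP4, not called, and MAP1LC3A, higher in the duct. UBE2R2, a ubiquitin-conjugating enzyme, had 72.2 to 163 CPM in the testis (median 108) and 28.6 to 64.2 CPM in the duct (median 46.5), a log2 fold change of −1.31 ± 0.27 (adjusted p = 0.00072).

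Of the 16 named loci that were not called, 15 had their highest median in the third tissue of the same birds, the epididymis, at 4.27 to 90.3 times the higher of the other medians. The study named loci from any pair of tissues, so these values describe how they came onto the lists. The exception was USP4. This peak was not particular to uncalled loci, and its share among called loci was not counted. CAT, for example, had medians of 740 CPM in the epididymis and 87.9 CPM in the duct. LRP2 had 443 CPM in the epididymis and 10.8 CPM in the testis. KRT19, with 18.1 CPM in the epididymis and 545 CPM in the duct, went the other way.

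The study also listed 182 lncRNA loci as different between these tissues, again on these libraries. Of them 176 were called, 126 lower in the duct (median log2 fold change −5.45, or −4.46 with the 29 loci at the limit of the depth set to their bound) and 50 higher (median 3.19). Groups did not overlap for 124 loci lower and 50 higher in the duct, beside 30.3% lower and 14.3% higher among all loci tested. Of all loci tested, 45.3% were called. The locus with the largest gain was MSTRG.4040, on chromosome 1 from 80051686 to 80090306 of the turkey genome build used by the study. It ranged from 0.0348 to 0.432 CPM in the testis (median 0.130) and from 182 to 547 CPM in the duct (median 356), a log2 fold change of 10.85 ± 0.71 (adjusted p = 9.72e-08).

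MSTRG.40589, on chromosome 6 from 4435608 to 4443735, had 0 to 0.113 CPM in the testis (median 0.0367) and 3.10 to 30.2 CPM in the duct (median 18.8), a log2 fold change of 8.68 ± 0.93 (adjusted p = 4.82e-06; 9.39 without bird 11). The largest losses were of loci without a single count in any of the 6 ducts. MSTRG.9478, on chromosome 1 from 194048391 to 194988322, had 7.21 to 21.2 CPM in the testis (median 9.37) and its mean there (11.0 CPM) was at least 193-fold above the level of 3 counts in a duct library (adjusted p = 1.37e-06). MSTRG.865, on chromosome 1 from 20614188 to 20672360, had 2.03 to 12.1 CPM in the testis (median 9.11), with a mean (8.52 CPM) at least 149-fold above that level (adjusted p = 5.25e-06). The former spans 940 kb, and 18 of the 182 loci spanned more than 500 kb, whereas the median span was 31.3 kb. A locus of that width can hold reads of several genes.

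The 6 lncRNA loci that were not called had log2 fold changes from −3.57 to −0.66, all lower in the duct. MSTRG.14108, for example, ranged from 70.2 to 141 CPM in the testis and from 0.0924 to 28.7 CPM in the duct (−2.87 ± 0.97, adjusted p = 0.02). This locus was chosen after its values were seen.

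Among loci with neither a name nor a place on the lncRNA list, MSTRG.39281 and MSTRG.22581 had the largest gains in the duct. MSTRG.39281 had 0 to 0.176 CPM in the testis (median 0.0144) and 383 to 1681 CPM in the duct (median 847), a log2 fold change of 13.97 ± 1.10 (adjusted p = 4.05e-07; 14.92 without bird 14). MSTRG.22581 had 0 to 0.157 CPM in the testis (median 0.0545) and 164 to 353 CPM in the duct (median 216), a log2 fold change of 11.90 ± 0.78 (adjusted p = 1.02e-07). Both were close to absent from the testis at this depth.

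MSTRG.2512 and MSTRG.49006 had the largest losses, with no count in any duct library. The first ranged from 2.28 to 212 CPM in the testis (median 79.1), and its mean (81.5 CPM) was at least 1431-fold above the level of 3 counts in a duct library (adjusted p = 3.98e-05). The second ranged from 24.3 to 185 CPM (median 58.9), with a mean (77.2 CPM) at least 1356-fold above that limit (adjusted p = 2.06e-06). For both, the testis of bird 11 was the highest and raised the mean.

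Counts were more concentrated in the duct. The 100 most abundant loci of a library held 35.1% to 48.6% of the counts in the duct (mean 40.4% ± 5.14, SD, n = 6) and 19.8% to 39.1% in the testis (mean 30.8% ± 6.24, SD, n = 6). The difference of 9.66 percentage points was found in all 6 birds (two-sided exact permutation test over all assignments of 6 against 6 libraries, p = 0.0108; p = 0.0312 over the 64 sign patterns of the paired differences, the smallest it can give). It rested in large part on 1 locus, MSTRG.50983, which was singled out after its values were seen. This locus alone took 4.99% to 10.9% of all counts in the duct and 0.0105% to 1.496% in the testis. Its level was 50800 to 157426 CPM in the duct (median 96132) and 121 to 14254 CPM in the testis (median 5232), a log2 fold change of 4.11 ± 0.77 (adjusted p = 0.00038). Without it, the difference was 4.77 percentage points, with the duct higher in 4 of 6 birds (exact permutation test, p = 0.171).

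The spread between birds was larger in the testis. The median SD of log2(CPM + 1) over the birds was 0.49 in the testis and 0.33 in the duct, and 19120 of 27550 loci (69.4%) had the larger SD in the testis. This order depended on the testes of birds 11 and 12: without them the median was 0.29 in the testis, and 12196 loci (44.3%) had the larger SD there.

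Transcripts showed which part of a locus carried these counts. The merged assembly joins annotated (Ensembl) transcripts and newly assembled ones in a locus, and the transcript counts separate them. An annotated transcript with no more counts than its locus in any library was present for 79 of the 80 named loci. ARMC4 was the locus without one, as its listed transcript was absent from the transcript counts. Its tie to the gene could therefore not be checked by transcript. In 43 of these loci, annotated transcripts held under 10% of the counts in both tissues, and in 12 loci they held over 50% in both. Of the 43, assembled transcripts held over 50% of the counts in both tissues for 42. The exception was MAP1LC3A, with 51.2% of its counts in the testis and 33.6% in the duct outside the assembled transcripts. Annotated transcripts carried nearly all counts of KRT19 (98.6% in the testis and 98.8% in the duct), and all counts of ACAA2, ARPC5, CCDC40, CCNO and SEPT4.

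Of the 46 loci whose most abundant annotated transcript could be tested, 25 had it called, and 24 of these went the way of their called locus. The counts of a transcript are part of those of its locus, so this agreement was partly fixed in advance. For 7 of the 46, called or not, the transcript had the sign opposite to its locus. Over all transcripts tested, 25.2% were called. With the bird as a block, 11 of the 46 were called, and the 25.2% is no measure for them because it comes from the fit without the block. Called transcripts included those of KRT19 (5.06 ± 0.51, adjusted p = 3.52e-05), CSRP1 (3.30 ± 0.49, adjusted p = 0.000263), CCDC40 (−4.63 ± 0.36, adjusted p = 7.07e-06) and CCNO (2.88 ± 0.67, adjusted p = 0.00448). These transcripts held most or all counts of their loci in both tissues, so they largely repeat the locus result. The call of the CCNO transcript was lost in the fit with birds as blocks (adjusted p = 0.0363) and when single birds were left out (adjusted p up to 0.0228).

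In 6 loci the share of counts on annotated transcripts differed by more than 50 percentage points between the tissues. ASS1 had no difference at the locus, but its annotated transcripts held 4.44% of the counts in the testis and 62.5% in the duct. Its most abundant annotated transcript was higher in the duct by 3.62 ± 0.64 on the log2 scale (adjusted p = 0.000677; adjusted p = 0.0142 in the fit with birds as blocks). PROC had no count on its annotated transcript in any testis, against 895 to 3585 counts in the ducts (74.7% of the locus). In the opposite direction, annotated transcripts of NDC80 held 71.1% of its counts in the testis and 0% in the duct, and that of TEKT2 85.8% and 4.51%. Both duct shares rest on few counts, 223 for the NDC80 locus and 710 for the TEKT2 locus, summed over all ducts.

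CRYAB and DNAH5 were the other 2, with 6.49% and 93.1% in the testis and 80.1% and 33.3% in the duct, at few counts. TMEM27 came close, with 2.79% and 46.4%, and its annotated transcript was higher in the duct without passing the threshold (3.71 ± 1.15, adjusted p = 0.0224).

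A gain at the locus did not always include the annotated transcript. SLC15A1 rose at the locus, but its annotated transcript held 13.9% of the counts in the testis and 0.255% in the duct (log2 fold change −1.39 ± 1.26, adjusted p = 0.421). For SLC34A2 the annotated transcript held 0.337% of the duct counts (−2.39 ± 1.93, adjusted p = 0.364; −4.31 without bird 2). For RHOA it held 0.495% of them (−1.13 ± 1.38, adjusted p = 0.561), but this value came from the duct of bird 14, with 2157 counts against 20 or fewer in the other ducts. Without bird 14 the annotated transcript of RHOA was lower in the duct (−5.30, adjusted p = 0.00159), whereas with birds as blocks it was not called (−4.40, adjusted p = 0.0661). For these 3 genes the called gain lies on assembled transcripts of the locus. They are examples only, since annotated transcripts held under 10% of the counts in both tissues in 43 loci and over 50% in 12. Those of LGMN, FGFR1, SPTBN1 and TEKT3 held 0% in both tissues, and that of CAT 0.231% in the testis and 0.421% in the duct. Changes at such loci are tied to the named gene through the locus, not through counts on its annotated transcript. One listed transcript of RFX2 had more counts than its locus and was left out, so the tie between that gene and its locus is uncertain.

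**Figure D5:**
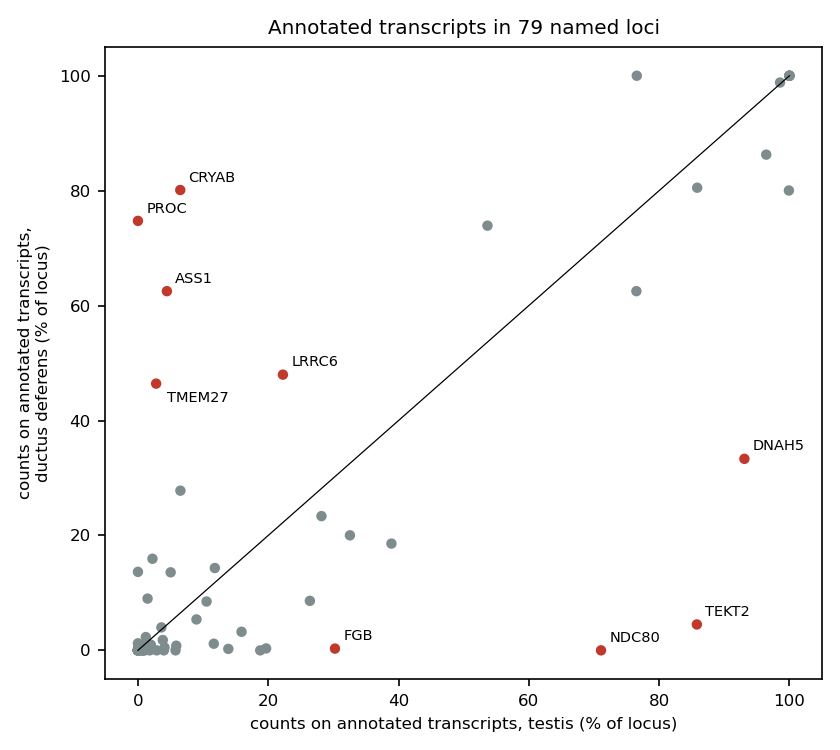
Share of the counts of a locus that fell on its annotated transcripts, in the testis (x axis) and in the ductus deferens (y axis), for 79 named loci, with counts summed over the 6 libraries of a tissue. Points on the line have equal shares, and named red points differ by more than 25 percentage points, with PROC, ASS1 and CRYAB high in the duct and TEKT2 and NDC80 high in the testis.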

How the data were processed

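RNA-seq libraries of testis and ductus deferens of 6 birds were compared. The libraries of the epididymis entered only an alternative fit and the medians compared with that tissue, which were scaled over all 18 libraries. According to the methods of the study, reads were trimmed to 90 nt with Trimmomatic 0.38, mapped with STAR 2.4 to turkey genome 2.01 (annotation 2.01.91), and assembled into transcripts that StringTie 1.3.3 merged across samples. The deposited tables hold raw counts per locus and per transcript of the merged set, without normalization. The counting tool and its use of strand are not given in the sources used here, so overlapping and antisense loci are uncertain. Reads carried no molecular identifiers, so the depth limit covers counting error only.

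Counts were tested with edgeR 4.0.16 in R 4.3.3, with TMM scaling, its default filter of loci with few counts (filterByExpr), a robust quasi-likelihood fit and Benjamini-Hochberg adjustment. The standard error is the absolute log2 fold change divided by the square root of F. The study used Ballgown and Cuffdiff, which need another unit. Only the 12 libraries of both tissues entered the fit, without the bird, and p-values measure the spread between these 6 birds. The bird numbers in the labels pair the tissues, which come from the same animals, although deviations from the tissue mean correlated over 0.1 between the tissues of 1 bird only (bird 12, r = 0.24; the others from −0.14 to 0.02). Single values were compared with exact permutation tests. Python 3.11.15 with scipy 1.17.1, pandas 2.3.3, numpy 2.4.6 and matplotlib 3.10.9 made the tables and figures. The fits with edgeR (with and without the block), limma and DESeq2 were tested on counts simulated with the spread of the testes in both tissues. The simulation held 27499 loci and no effect of the bird, so a gain from the block could not show. Of 189 changed loci, edgeR recovered 72, edgeR with the block 30, limma 71 and DESeq2 112. Unchanged loci called were 0, 0, 2 and 16 in the same order. In the data 45.3% of the loci were called, so the adjustment was stricter in the simulation, and its recovered shares do not carry over. A locus that is not called, or a call lost with the block, is no evidence of equal levels.

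The comparison, lists and tests were chosen with earlier results of these data known. In each list, the 4 called loci with the largest change in one direction in all 6 birds and every uncalled locus are described in full. Other members are given in brief, some only within the counts of their list. For lncRNA and unnamed loci, the 2 largest changes per direction are named, the latter with a mean of at least 10 CPM in the higher tissue. Gene names of loci, lncRNA positions and transcript pairs were taken from identifiers in the study's supplement. Its rows with gene names could be read only in part. Of the loci with a name, 3 are not reported here. Loci and transcripts without such a tie were used without a name. Alternatives were DESeq2 1.42.0, 3 other scalings, no filter or at least 10 counts in 6 libraries, a fit of all 3 tissues, limma 3.58.1 on log2(CPM + 1), a block for the bird, leaving out single birds, dropping the fold limit, and an adjusted p threshold of 0.05. After the data were seen, fits without the testes of birds 11 and 12 and the share without 1 locus were added. No promoter sequence was used here.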

Additional observations from a re-analysis of the deposited data

Results flagged for a closer look

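In groups of 6 libraries, a value was taken as far from the others when its gap to the nearest one exceeded, as a part of the range of the group, Dixon's critical value. Among 112 groups examined over the loci described in full, 13 had such a value. A rate by chance of about 1 in 20 holds for independent groups of normally distributed values. These values were CPM without logarithm and the groups share libraries, so the count of 13 cannot be set against that rate. The testis of bird 11 held 8 of them, all highest values: TEKT3 at 652 CPM (next 294), PCSK4 at 158 (next 57.4), USP4 at 485 (next 219.8), KRT19 at 25.6 (next 16.2), CDHR2 at 22.5 (next 9.63), CRYAB at 9.61 (next 3.65), P2RX2 at 8.86 (next 3.61) and MSTRG.9478 at 21.2 (next 10.7). The testis of bird 12 held 3 highest values, ARMC4 at 144 CPM (next 55.0), SLC26A8 at 61.2 (next 28.0) and FGB at 7.03 (next 2.38).

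The ducts held the other 2. DRC7 was highest in the duct of bird 15, at 0.588 CPM (next 0.187), and DNAH5 in the duct of bird 11, at 0.529 CPM (next 0.127), both few counts.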

How the results depend on the processing

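The number of called loci was from 10268 (bird as a block) to 17010 (no filter on low counts, 54860 loci tested) over 20 alternatives, against 12470. Loci called lower in the duct rose to 12683 without the filter, where more loci were tested. With each bird left out, 10832 to 13033 loci were called. The share of calls that were higher in the duct ranged from 25.1% (library size alone) to 37.8% (limma), against 32.8%. Limma moved the median of all loci by 0.30, library size alone by −0.32 and the size factors of DESeq2 by −0.22. Of the 64 named calls, 58 held in all 20 alternatives, and CLGN, FGB, LRP2, RDH10, ITM2C and TOP3B did not. Of the 16 uncalled loci, 7 were called in at least 1 alternative. DESeq2 called DNAH5, KL, CRYAB, PLA2G12B and CREB3L3 lower in the duct (adjusted p from 8.64e-05 for CREB3L3 to 0.00819 for CRYAB), so that 44 named loci were lower. CREB3L3 was called in 5 of the 20 alternatives, F3 in 8, and AQP4 without bird 11. Among the loci described in full, none that was called changed sign. ASS1, near 0, turned to −0.28 with library size alone, −0.089 with the upper quartile, −0.23 with the size factors of DESeq2 and with DESeq2 itself, −0.31 with limma, −0.37 with the bird as a block and −0.02 without the testis of bird 12, and was between −0.41 and 0.25 with 1 bird left out. With 1 bird left out, P2RX2 was between −1.06 and 0.047, CDH20 between −0.47 and 0.32 and TMEM27 between −0.40 and −0.009, and without the testis of bird 12 TMEM27 was 0.013.

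With the bird as a block, 11 annotated transcripts were called in place of 25. The block changed the locus calls only of CLGN and F3 among those named. The difference in the share of the most abundant loci was 5.58 points for the 10 most abundant (p = 0.0952 by exact permutation), 8.48 points for the 1000 most abundant (p = 0.0108, higher in all 6 birds) and 4.77 points without MSTRG.50983. The difference in median SD between testis and duct, 0.16, was 0.10 on log2(CPM + 5), 0.24 for loci with at least 10 CPM in both tissues, 0.0375 without the testis of bird 11, 0.114 without that of bird 12, −0.0415 without those of birds 11 and 12, and −0.13 with both restrictions. Levels below 0.0237 to 0.057 CPM, depending on the library, could not be resolved, so values of 0 are limits of the depth. The planned comparison of promoter letters was not run.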
